A study of Glycine max with 18 samples.

Results

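Glyma.07G189300, Glyma.08G059900 and Glyma.19G164600 are 3 soybean MYB genes, named here by the Arabidopsis gene that each matched best in the tables of the study. The best match of Glyma.07G189300 and of Glyma.08G059900 was MYB102, and that of Glyma.19G164600 was MYB14. They are 3 of the 4723 genes to which a probe could be tied here, through array symbols and the held parts of the study's tables. The array covers more genes than these. Each of the 3 was read by 1 probe. They were chosen with their increases after 10 h of dehydration known, so DT-D10/DT-C and W-D10/W-C are described for them without a test.

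MYB proteins are transcription factors that bind DNA through repeated helix-turn-helix units at the N-terminal end, and the family is one of the largest in plants. In roots, members of the family are known to act in responses to abscisic acid (ABA) and osmotic stress, in cell wall and suberin deposition, and in phenylpropanoid synthesis. In Arabidopsis, MYB102 transcripts are known to respond to osmotic stress, wounding and ABA, and MYB14 is known from work on freezing tolerance. A separate entry for Glyma.19G164600 in the same tables named another Arabidopsis match, MYB15. It is a close relative of MYB14 known from cold and drought responses and from lignin synthesis.

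Roots were taken from 14-day-old plants of 2 soybean cultivars, each in 3 groups of 3 biological repeats. DT2008, a cultivar from Vietnam with enhanced drought tolerance, gave DT-C (well watered, 0 h), DT-D2 (2 h of dehydration) and DT-D10 (10 h). W82 (Williams 82), the drought-sensitive cultivar whose genome was sequenced, gave W-C, W-D2 and W-D10 in the same way. Dehydration consisted of lifting whole plants out of the vermiculite and leaving them to dry on paper, and no group was sampled at 2 or 10 h without drying, so time and dehydration cannot be told apart. The study reported a lower relative water content of the aerial parts in W82 than in DT2008 at both times of dehydration. Cultivar and degree of water loss therefore cannot be told apart in the dehydrated groups. Whether a repeat pooled several plants is not stated. In whole roots, fewer cells of a type and less RNA per cell cannot be told apart.

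Every value is the log2 value of a probe relative to its own median over the 18 arrays. A value of 1 therefore lies 2-fold above that median, and levels of different genes cannot be set against each other, because centring took out how bright each probe was. A difference between groups is a log2 change with the standard error (SE) of a limma fit to all arrays. A probe was called at a change of at least 2-fold together with an adjusted p under 0.05 over 66195 probes. Repeats of a group correlated over all probes at 0.369 to 0.721. Of the tissue markers, 14 nodule probes had a mean between -0.26 and 0.13 on every array. By limma 1 of them, Glyma.17G073400, was called upregulated in each comparison of a dehydrated group with its control, and ENOD93 was called downregulated in W-D2/W-C (-1.71, adjusted p = 0.000189) and in W-D10/W-C (-2.49, adjusted p = 1.13e-06). In DT-C/W-C ENOD40B was called up (1.04, adjusted p = 0.049) and ENOD93 down (-1.80, adjusted p = 8.26e-05). The 2 shoot probes, CAB3 and PSAD, were not called in any of the comparisons of cultivars or times. Under 2-fold, CAB3 was lower in DT-D10 than in DT-C by a log2 difference of -0.90 (adjusted p = 0.00678) and than in DT-D2 by one of -0.78 (adjusted p = 0.0284), and PSAD was higher in DT-C than in W-C by 0.99 (adjusted p = 0.00607). The part of these markers in the results was not tested. Since values are centred, whether leaf or nodule RNA was present cannot be read from them.

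Glyma.07G189300 was low before and after 2 h of dehydration and high after 10 h in both cultivars. In DT2008 its 3 values were -0.63, -0.61 and -0.46 in DT-C, 0.21, 0.16 and -0.22 in DT-D2, and 1.78, 1.93 and 1.77 in DT-D10. In W82 they were -0.75, -0.92 and -0.58 in W-C, -0.12, 0.12 and -0.82 in W-D2, and 2.13, 2.39 and 2.32 in W-D10. The 6 arrays at 10 h stood clear of the other 12, while 1 array of W-D2 lay among those of W-C. The order of the group means was W-C (-0.75 ± 0.17, SD, n = 3), DT-C (-0.57 ± 0.10), W-D2 (-0.27 ± 0.49), DT-D2 (0.05 ± 0.24), DT-D10 (1.83 ± 0.09) and W-D10 (2.28 ± 0.13). Neighbours in that order overlapped up to DT-D2, and DT-D2, DT-D10 and W-D10 did not overlap.

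Glyma.08G059900 climbed more evenly, with its 3 times apart in both cultivars. In DT2008 the values were -0.77, -0.56 and -0.54 in DT-C, 0.24, 0.14 and -0.13 in DT-D2, and 1.39, 1.93 and 1.46 in DT-D10. In W82 they were -0.93, -0.98 and -0.99 in W-C, -0.04, 0.04 and -0.28 in W-D2, and 1.57, 1.05 and 1.90 in W-D10. No array of a later time reached down to an array of an earlier time, in either cultivar. Of all probes, 12.1% to 15% had this in a single comparison of 2 times. By mean the groups ran W-C (-0.97 ± 0.04, SD, n = 3), DT-C (-0.62 ± 0.13), W-D2 (-0.09 ± 0.17), DT-D2 (0.08 ± 0.19), W-D10 (1.50 ± 0.43) and DT-D10 (1.59 ± 0.30). The cultivars overlapped at 2 h and at 10 h but not at 0 h, where 14.5% of all probes likewise had DT2008 above W82 on every array.

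In Glyma.19G164600, the MYB14 match, the cultivars stood apart at every time. In DT2008 it had values of -0.21, -0.58 and -0.47 in DT-C, 0.31, 0.28 and 0.21 in DT-D2, and 0.83, 0.58 and 0.69 in DT-D10. In W82 it had -1.56, -1.31 and -1.31 in W-C, -0.52, -0.73 and -0.72 in W-D2, and 0.40, 0.31 and 0.31 in W-D10. At each time all 3 arrays of DT2008 were above all 3 of W82, as for 14.5% of all probes at 0 h, 17.3% at 2 h and 11.8% at 10 h. The means ran W-C (-1.40 ± 0.14, SD, n = 3), W-D2 (-0.66 ± 0.12), DT-C (-0.42 ± 0.19), DT-D2 (0.26 ± 0.05), W-D10 (0.34 ± 0.05) and DT-D10 (0.70 ± 0.12). Unstressed DT2008 roots thus overlapped W82 roots after 2 h, and DT2008 roots after 2 h just overlapped W82 roots after 10 h. Each other pair of neighbours was apart.

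**Figure D1:**
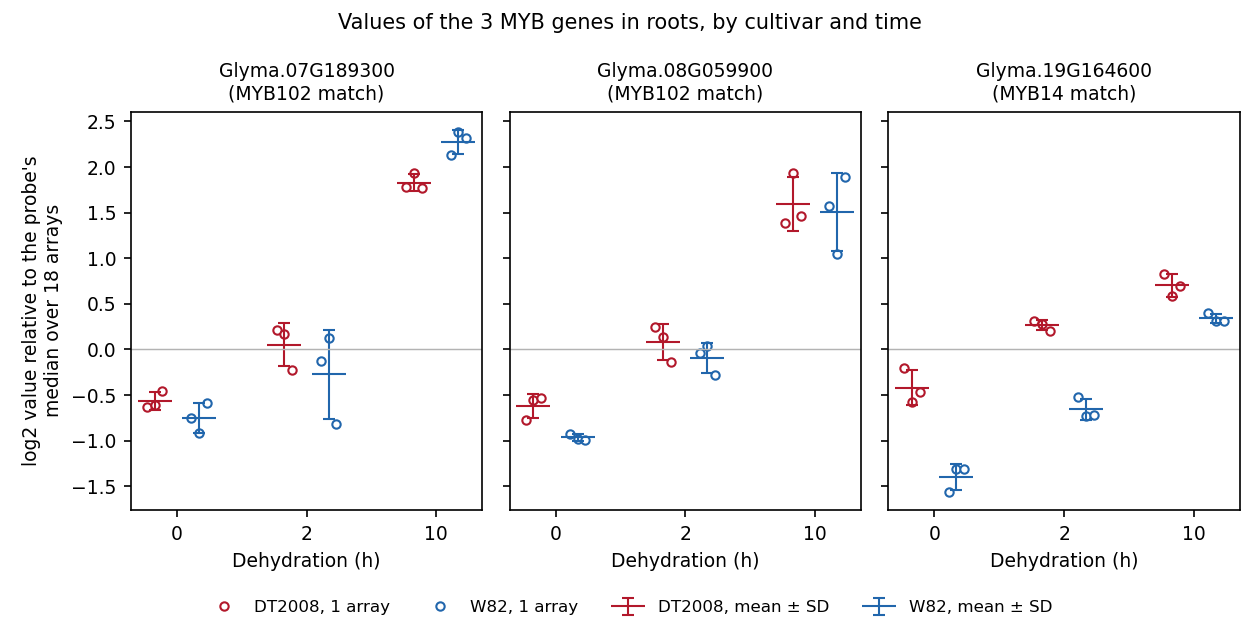
Values of the 3 MYB genes on each array (open points) with the mean and SD of 3 arrays (lines), by hours of dehydration, DT2008 left of W82 at each time; the y axis is the log2 value relative to the probe's median over 18 arrays. Both MYB102 matches are highest at 10 h in both cultivars, with means of 1.50 to 2.28, whereas the MYB14 match is higher in DT2008 than in W82 at every time.

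After 10 h of dehydration all 3 transcripts were above the control in both cultivars, and no array of a 10 h group overlapped its control. These contrasts chose the genes, so their values are a description. Of all probes, 2.75% were upregulated in DT-D10/DT-C and 3.49% in W-D10/W-C, and the 10 h arrays all lay above the controls for 13.5% and 15% of probes. Glyma.07G189300 changed by 2.40 in DT-D10/DT-C (SE 0.19, 5.26-fold) and by 3.03 in W-D10/W-C (SE 0.19, 8.16-fold). Glyma.08G059900 changed by 2.22 in DT-D10/DT-C (SE 0.19, 4.64-fold) and by 2.47 in W-D10/W-C (SE 0.19, 5.54-fold). Glyma.19G164600 had the smallest changes of the 3, with 1.12 in DT-D10/DT-C (SE 0.13, 2.17-fold) and 1.74 in W-D10/W-C (SE 0.13, 3.33-fold). After quantile normalization the last of these values was 1.48.

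In all 3 genes the change at 10 h was numerically smaller in DT2008 than in W82, with the order turned after quantile normalization for Glyma.08G059900. The difference between the changes, DT2008 minus W82, was -0.63 for Glyma.07G189300 (95% interval -1.20 to -0.07), -0.25 for Glyma.08G059900 (-0.82 to 0.31) and -0.62 for Glyma.19G164600 (-1.01 to -0.23). Whether the unequal water loss of the cultivars had a part in these differences was not tested. They rest on the arrays that chose the genes and are given without a test. After quantile normalization they were -0.28, 0.0055 and -0.31 in the same order of genes.

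**Figure D2:**
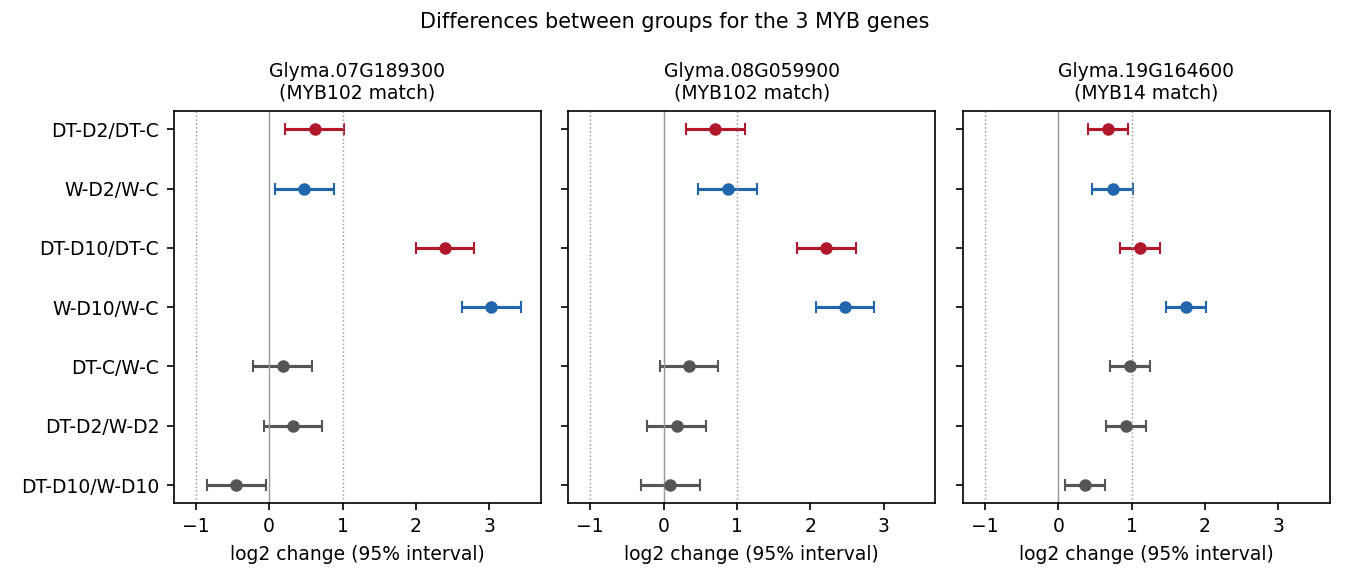
Differences between groups for the 3 MYB genes (points) with the 95% interval of the limma fit (bars); x axis, log2 change of the first group named over the second, with dotted lines at 2-fold. The changes at 10 h are 1.12 to 3.03, those at 2 h are 0.48 to 0.87, and only Glyma.19G164600 has intervals clear of 0 in each of the 3 comparisons of DT2008 with W82.

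The early response was tested in DT-D2/DT-C and W-D2/W-C, which share their control arrays with the contrasts that chose the genes. None of the 3 genes reached 2-fold, while 2.89% of all probes were called upregulated in DT-D2/DT-C and 1.83% in W-D2/W-C. By limma all 3 had an adjusted p under 0.05 in DT-D2/DT-C and 2 of 3 in W-D2/W-C, shares that 6.55% and 4.65% of all probes reached with an increase of any size. The unadjusted p was under 0.05 for 3 of 3 in each comparison. Of all 66195 probes, 15835 had such a p in DT-D2/DT-C and 13605 in W-D2/W-C, in either direction.

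Glyma.07G189300 was 0.62 higher in DT-D2 than in DT-C (SE 0.19, 1.54-fold, adjusted p = 0.041), and the 2 groups did not overlap, as for 12.4% of all probes. It was 0.48 higher in W-D2 than in W-C (SE 0.19, 1.39-fold, adjusted p = 0.151), with overlap. The third array of W-D2 weighed on that value, and without it the change was 0.75 (adjusted p = 0.0124). For Glyma.07G189300 in DT2008 the adjusted p was up to 0.143 when single arrays were left out, 0.129 after quantile normalization and 0.134 with a trended robust prior.

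Glyma.08G059900 was 0.70 higher in DT-D2 than in DT-C (SE 0.19, 1.63-fold, adjusted p = 0.0199) and 0.87 higher in W-D2 than in W-C (SE 0.19, 1.83-fold, adjusted p = 0.00699). In DT-D2/DT-C its adjusted p passed 0.05 without the first array of DT-C (0.0838), without the first (0.0642) or the second (0.0719) array of DT-D2, and with a trended robust prior (0.0517). Glyma.19G164600 was 0.68 higher in DT-D2 than in DT-C (SE 0.13, 1.60-fold, adjusted p = 0.00157) and 0.74 higher in W-D2 than in W-C (SE 0.13, 1.67-fold, adjusted p = 0.00122). For both genes the dehydrated arrays lay above the control arrays in each cultivar, as for 12.4% of probes in DT-D2/DT-C and 13.5% in W-D2/W-C. After quantile normalization Glyma.19G164600 was only 0.28 higher in W-D2 than in W-C (adjusted p = 0.248). By the methods' t-test the adjusted p of the 3 genes at 2 h were 0.0673 to 0.47.

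The early responses were not found to differ between cultivars. The difference of the 2 h changes, DT2008 minus W82, was 0.14 for Glyma.07G189300 (95% interval -0.43 to 0.71, adjusted p = 0.893), -0.17 for Glyma.08G059900 (-0.73 to 0.40, adjusted p = 0.867) and -0.06 for Glyma.19G164600 (-0.45 to 0.33, adjusted p = 0.939). By limma 0 of 3 genes were called, 0 of 3 had an unadjusted p under 0.05, and 0.42% of all probes were called. An unadjusted p under 0.05 was reached by 7626 of 66195 probes. The intervals still allow differences of up to 0.73 on the log2 scale.

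The share of the 10 h log2 change that was present at 2 h set the genes apart as a description. It was 25.8% in DT2008 and 15.7% in W82 for Glyma.07G189300, the latest of the 3. It was 31.8% in DT2008 and 35.3% in W82 for Glyma.08G059900. For Glyma.19G164600 it was 60.9% in DT2008 and 42.6% in W82. The shares in W82 were unsteady, since after quantile normalization that of Glyma.19G164600 was 19.1%, below the 32.8% of Glyma.08G059900. That of Glyma.07G189300 in W82 was 24.8% without the third array of W-D2 and 9.17% without the second. The step between 2 and 10 h was accordingly largest for Glyma.07G189300, with 1.78 in DT-D10/DT-D2 (SE 0.19) and 2.55 in W-D10/W-D2 (SE 0.19). By size it ranked 28 among all probes in W-D10/W-D2. That step was 0.44 in DT-D10/DT-D2 and 1.00 in W-D10/W-D2 for Glyma.19G164600.

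Between the cultivars, Glyma.19G164600 was the member that stood apart before dehydration and after 2 h. It was 0.98 higher in DT-C than in W-C (SE 0.13, 1.97-fold, 95% interval 0.70 to 1.25, adjusted p = 6.25e-05) and 0.92 higher in DT-D2 than in W-D2 (SE 0.13, 1.89-fold, 95% interval 0.65 to 1.19, adjusted p = 0.000118). Both values lay just under the 2-fold threshold, which 1.44% of all probes passed upwards in DT-C/W-C and 1.65% in DT-D2/W-D2. An adjusted p under 0.05 with an increase of any size was reached by 6.22% of probes in DT-C/W-C and by 6.91% in DT-D2/W-D2. DT-D2/W-D2 shares no array with the contrasts that chose the genes. Its limma SE still pools the spread of all groups, so its limma p-value is not fully independent of the choice. DT-C/W-C and DT-D10/W-D10 are built from arrays of the contrasts that chose the genes, so their p-values are not independent of the choice either.

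After 10 h the gap of Glyma.19G164600 was 0.36 in DT-D10/W-D10 (SE 0.13, 95% interval 0.09 to 0.63, adjusted p = 0.136), although the arrays did not overlap. In DT-C/W-C its change reached 2-fold when any 1 of 4 arrays was left out, the second or the third of W-C or of DT-C, with a range of 0.87 to 1.06 over all arrays left out. Over the other alternatives that change ran from 0.74 to 0.99. By the methods' t-test the adjusted p was 0.0803 in DT-C/W-C and 0.0317 in DT-D2/W-D2. PSAD, the shoot marker, was higher in DT2008 by 0.99 in DT-C/W-C, 0.85 in DT-D2/W-D2 and 0.89 in DT-D10/W-D10, CAB3 by 0.34, 0.29 and -0.05, and their part in the result was not tested.

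For Glyma.07G189300 and Glyma.08G059900 no difference between cultivars passed the test. Glyma.07G189300 differed by 0.18 in DT-C/W-C (95% interval -0.22 to 0.58, adjusted p = 0.636), by 0.32 in DT-D2/W-D2 (-0.08 to 0.73, adjusted p = 0.298) and by -0.45 in DT-D10/W-D10 (-0.85 to -0.05, adjusted p = 0.221). At 10 h its 3 arrays of DT2008 were all below those of W82, as for 9.93% of probes. Over the alternatives other than leaving out arrays, its difference at 10 h ran from -0.46 to -0.13. Glyma.08G059900 differed by 0.34 in DT-C/W-C (-0.06 to 0.74, adjusted p = 0.295), by 0.18 in DT-D2/W-D2 (-0.22 to 0.58, adjusted p = 0.616) and by 0.09 in DT-D10/W-D10 (-0.31 to 0.49, adjusted p = 0.876). The last value turned its sign without the second array of W-D10 or of DT-D10, with a lowest value of -0.14. In DT-D10/W-D10 1.2% of all probes were called downregulated and 0.523% upregulated, and 0 of the 3 genes were called by limma or by the methods' t-test, with an unadjusted p of limma under 0.05 for 2 of 3. Of all 66195 probes, 11379 had such an unadjusted p. The arrays of DT-D10/W-D10 also chose the genes, so these counts are a description.

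The tables of the study hold 4 further genes with the same best matches, which it had picked on these arrays, so that their number of increases is not independent evidence. Glyma.12G218200, Glyma.13G302400 and Glyma.15G066800 are MYB102 matches, and Glyma.03G163100 is a MYB14 match with the same other match as Glyma.19G164600. Of these 3 MYB102 matches, 2 were called upregulated by limma in DT-D10/DT-C and 3 in W-D10/W-C, with a median change of 1.33 and 2.04, and by the methods' t-test 1 and 2 were. Of all probes, limma called 2.75% upregulated in DT-D10/DT-C and 3.49% in W-D10/W-C. The calls lost by the methods' t-test were Glyma.12G218200 in DT-D10/DT-C (adjusted p = 0.234) and Glyma.15G066800 in W-D10/W-C (adjusted p = 0.0742). Glyma.03G163100 was called in W-D10/W-C but not in DT-D10/DT-C. Glyma.13G302400 (1.98-fold) and Glyma.03G163100 (1.99-fold) lay just under the 2-fold threshold in DT-D10/DT-C, and Glyma.19G164600 (2.17-fold) just above it. Over all probes the median change was -0.02 in DT-D10/DT-C and -0.03 in W-D10/W-C.

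Glyma.15G066800 changed more at 10 h than any of the 3 members, but with the widest spread. Its values were 2.93, 2.80 and 1.69 in DT-D10 against -0.95, -1.38 and -1.18 in DT-C. They were 2.04, 2.40 and 4.15 in W-D10 against -1.72, -1.37 and -0.82 in W-C. The 10 h arrays lay above the controls by a wide margin in both cultivars, with a change of 3.65 in DT-D10/DT-C (SE 0.42, 12.5-fold) and of 4.16 in W-D10/W-C (SE 0.42, 17.9-fold). At 2 h Glyma.15G066800 was 1.31 higher in DT-D2/DT-C (adjusted p = 0.051) and 1.28 higher in W-D2/W-C (adjusted p = 0.0745), past 2-fold but not past the test of limma. It passed in both when only the arrays of the groups compared were fitted, with an adjusted p of 0.0117 and 0.00676.

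**Figure D3:**
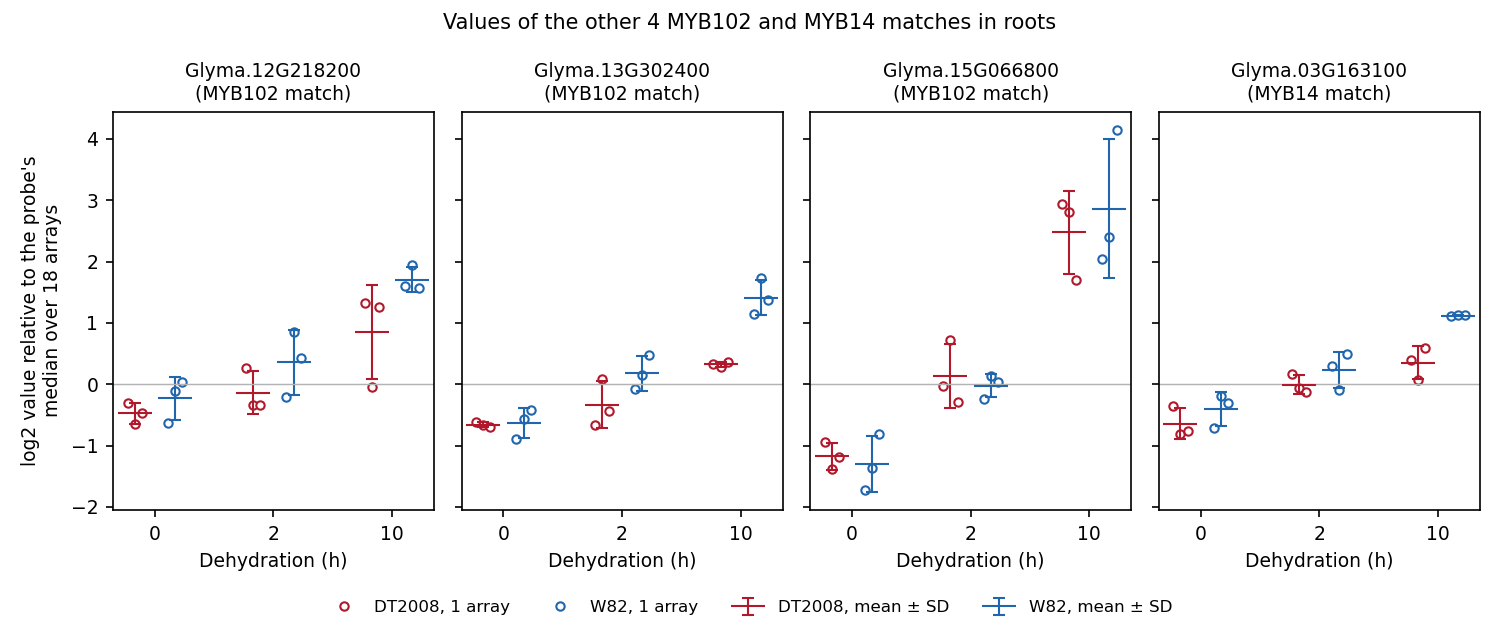
Values of the other 4 MYB102 and MYB14 matches on each array (open points) with the mean and SD of 3 arrays (lines), by hours of dehydration, DT2008 left of W82; the y axis is the log2 value relative to the probe's median over 18 arrays. Glyma.15G066800 reaches 4.15 on 1 array of W-D10, and the 3 other genes are lower in DT-D10 than in W-D10 on every array, as 9.93% of all probes are.

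Glyma.13G302400, Glyma.12G218200 and Glyma.03G163100 had smaller increases and lower values in DT2008 at 10 h. Glyma.13G302400 had 0.33, 0.28 and 0.36 in DT-D10 against 1.15, 1.73 and 1.37 in W-D10, a difference of -1.09 (adjusted p = 0.00191, called, 2.13-fold). This call was lost with quantile normalization (-0.99), without the second array of W-D10 (-0.93) and with the methods' t-test (adjusted p = 0.133). Glyma.03G163100 was lower in DT-D10 than in W-D10 by a log2 difference of -0.77 (adjusted p = 0.0188), under 2-fold, and for Glyma.12G218200 the difference was -0.85 (adjusted p = 0.141). In all 7 matches the 10 h change was smaller in DT2008 than in W82, by -0.25 to -1.06 as DT2008 minus W82, though with quantile normalization not for Glyma.08G059900. None of the 4 genes outside the members passed the test of that difference by limma (adjusted p = 0.101 to 0.803; unadjusted p under 0.05 for Glyma.13G302400), and 0.394% of all probes were called for it. The difference of Glyma.15G066800 turned to 0.13 without the third array of W-D10. The study picked all 7 matches on these arrays, and Glyma.13G302400 and Glyma.03G163100 were called by limma at 10 h only in W82. The direction shared by the 7 and the p-values between cultivars at 10 h are therefore not independent of that choice.

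Before dehydration the other MYB14 match was not found to differ between cultivars. Glyma.03G163100 had -0.36, -0.81 and -0.77 in DT-C against -0.71, -0.19 and -0.31 in W-C, groups that overlapped, with a difference of -0.24 (adjusted p = 0.494). Glyma.19G164600 had its difference of 0.98 between the same arrays. At 2 h Glyma.03G163100 was 0.64 higher than the control in DT2008 (adjusted p = 0.0289) and likewise 0.64 higher in W82 (adjusted p = 0.0385), close to the 0.68 and 0.74 of Glyma.19G164600.

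**Figure D4:**
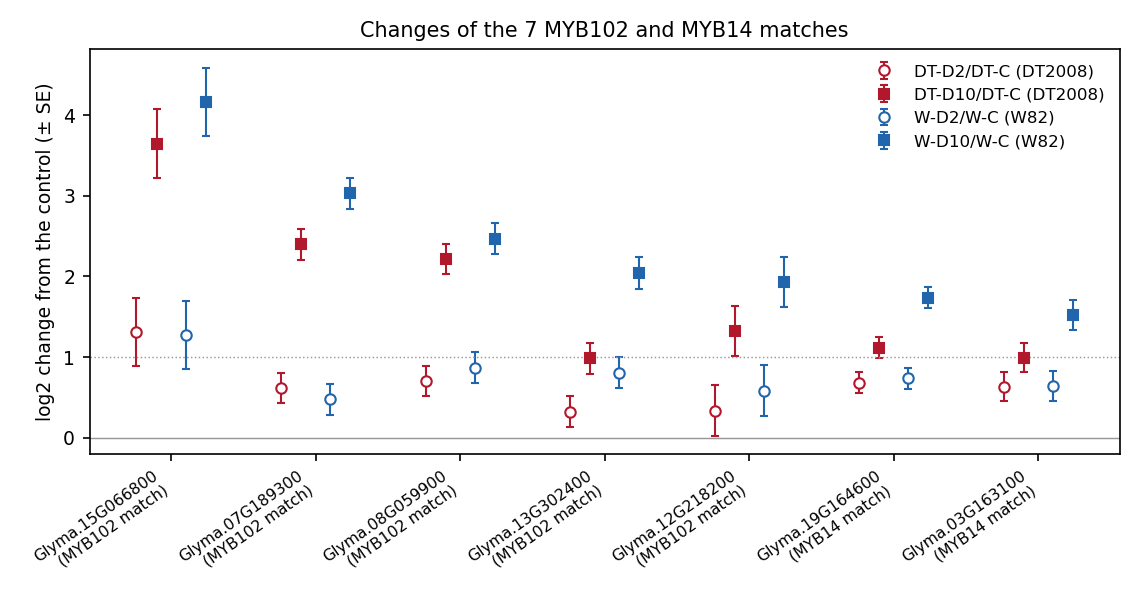
Log2 change from the control (± SE of the limma fit) of the 7 MYB102 and MYB14 matches after 2 h (circles) and 10 h (squares) in DT2008 and W82; the dotted line marks 2-fold. The 10 h changes run between 0.98 and 4.16, and every one is smaller in DT2008 than in W82 in these values (after quantile normalization not for Glyma.08G059900). The genes were picked on these arrays, so this order is a description.

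The transcription factor table holds 28 probes of the Myb family, all picked by the study on these arrays. Among the 25 besides the 3 members, 4 were called upregulated and 7 downregulated in DT-D10/DT-C, against 2.75% and 1.71% of all probes, and by the methods' t-test 2 were called up and 2 down. The comparison W-D10/W-C had 11 upregulated and 8 downregulated, against 3.49% and 1.66%. Between DT-D2 and W-D2, 2 of the 28 were called up and 5 down, against 1.65% and 2.56%, and Glyma.19G164600 was not among them. Lower in DT-D2 than in W-D2 were Glyma.18G030300 by a log2 difference of -2.01 (adjusted p = 6.01e-05), Glyma.11G227200 (-1.50, adjusted p = 0.000227), Glyma.05G072600, a MYB40 match (-1.24, adjusted p = 0.00107), Glyma.07G048500, a match of the clock gene LHY (-1.20, adjusted p = 7.31e-05), and Glyma.02G254200 (-1.09, adjusted p = 0.000267). Higher in DT-D2 were Glyma.15G019400 (1.20, adjusted p = 0.00335) and Glyma.13G354800 (1.11, adjusted p = 8.46e-05). By the methods' t-test 1 of the 28 was called up and 2 down in that comparison.

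Further MYB genes were reached through the symbols of the array. Of 10 probes with a MYB symbol, 9 of which the study had not picked, 0 were called in DT-D10/DT-C by limma (unadjusted p under 0.05 for 4), with a median change of 0.04. Such an unadjusted p was reached there by 16400 of 66195 probes. In W-D10/W-C 2 were called upregulated, MYB73 with 1.43 (adjusted p = 0.000439) and Glyma.11G107100, whose array symbol is MYBZ2, with 1.13 (adjusted p = 0.000911), and the median was -0.01. MYB73 was not called by the methods' t-test.

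Processes in which MYB proteins are known to act were covered thinly, since the parts of the tables used here tie few probes to them. Of the 17 Arabidopsis loci listed for suberin synthesis and its MYB regulators, 2 had a match, the MYB9 and MYB92 matches Glyma.01G016600 and Glyma.01G067800. Their changes lay between -0.67 and 0.36 in DT-D10/DT-C and between 0.01 and 0.24 in W-D10/W-C, and neither was called. Of the 16 loci listed for the phenylpropanoid pathway, matches of 3 were held by 4 probes, all picked by the study. Glyma.03G181600, a match of PAL1, the entry enzyme of the pathway, changed by 1.33 in DT-D10/DT-C (adjusted p = 0.000608) and by 1.15 in W-D10/W-C (adjusted p = 0.00192). Both calls of Glyma.03G181600 were lost by the methods' t-test (adjusted p = 0.152 and 0.0966), and that in W-D10/W-C also with quantile normalization (0.85) and without the first array of W-D10 (0.92). The other PAL1 match, Glyma.03G181700, changed by 0.92 in DT-D10/DT-C and by 0.64 in W-D10/W-C, and neither was called. Glyma.08G140600, a match of the hydroxylase gene FAH1, changed by 0.0052 in DT-D10/DT-C (adjusted p = 0.995) and by 1.92 in W-D10/W-C (adjusted p = 9.9e-05), and the difference of the 2 changes was -1.92 (adjusted p = 0.0402). This difference of Glyma.08G140600 was no longer called with quantile normalization (-1.62, adjusted p = 0.195), with the replicate block (0.0534), with a trended robust prior (0.0569) or without any 1 of 11 single arrays. Glyma.11G010500, a match of 4CL3, changed by -1.28 in DT-D10/DT-C (adjusted p = 6.39e-06) and by -0.92 in W-D10/W-C, the latter under 2-fold and not called. In all, 1 of the 4 was called up and 1 down in DT-D10/DT-C (2.75% and 1.71% of all probes), and 2 up in W-D10/W-C (3.49%). At 2 h limma called 2 of the 4 up in DT-D2/DT-C (median 1.14) and 3 in W-D2/W-C (median 1.38). Of all probes, 2.89% and 1.83% were called up there. By the methods' t-test 0 of the 4 were called up in DT-D2/DT-C. The median change from 2 to 10 h was -0.76 in DT2008 and -0.72 in W82.

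Over the 18 arrays the 3 members followed each other to different degrees, given here as Pearson's r between probes, which share the same arrays and the same 6 groups. Glyma.07G189300 and Glyma.08G059900 had an r of 0.958, and both were about as close to Glyma.15G066800 (0.942 and 0.954). Glyma.19G164600 had an r of 0.836 with Glyma.08G059900, 0.784 with Glyma.07G189300 and only 0.589 with Glyma.03G163100, the other MYB14 match. After the group means were taken off, r was 0.389 for the pair of MYB102 members and 0.686 for the pair of MYB14 matches.

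**Figure D5:**
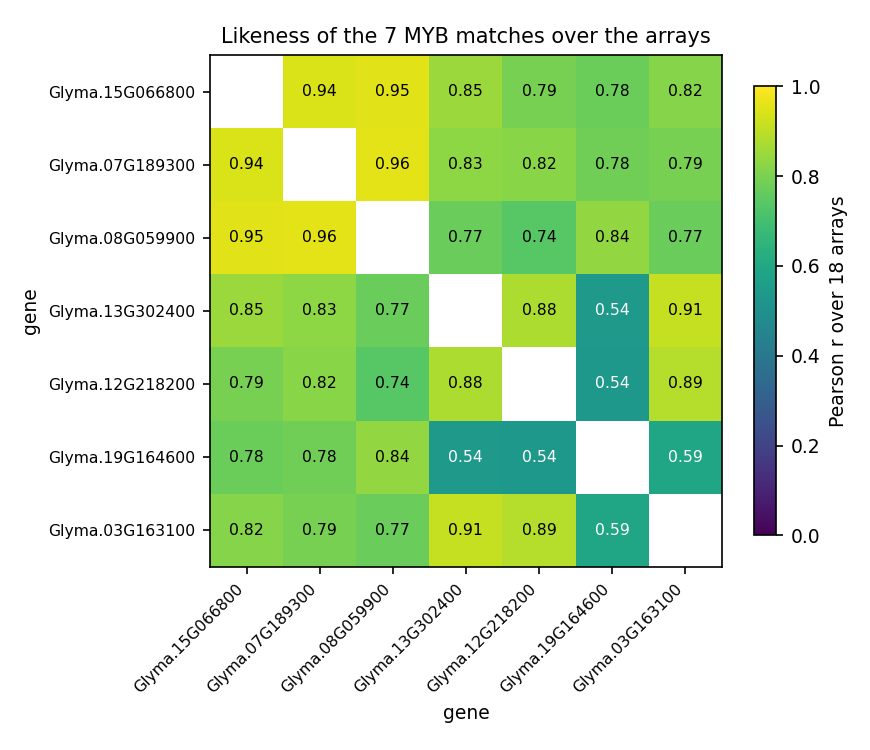
Pearson's r over the 18 arrays between the 7 MYB102 and MYB14 matches (colour and number). Glyma.07G189300, Glyma.08G059900 and Glyma.15G066800 reach 0.94 to 0.96 with each other, and Glyma.19G164600 has its lowest values, 0.54 to 0.59, with Glyma.12G218200, Glyma.13G302400 and Glyma.03G163100.

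The genes with the pattern most like each member were sought among 4821 other probes tied to 1 gene, and all of those found had been picked by the study. For Glyma.07G189300 they were Glyma.18G292100 (r = 0.98), Glyma.05G049600, a match of the co-chaperone gene BAG1 (0.967), Glyma.17G043900 (0.965), Glyma.16G116200 (0.965) and Glyma.08G170900 (0.964). For Glyma.08G059900 they were Glyma.07G039500 (0.971), Glyma.08G170900 (0.968), Glyma.14G090700, an RXW8 match (0.96), Glyma.18G035000, a match of PP2CA, a phosphatase that damps ABA signalling in Arabidopsis (0.958), and Glyma.16G021000, a match of the homeobox gene ATHB7 (0.958). Glyma.08G170900 was thus close to both MYB102 members.

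For Glyma.19G164600 the most alike were Glyma.15G084100, a match of the protein kinase gene CIPK12 (r = 0.965), Glyma.06G071900, a DBP1 match (0.963), Glyma.04G139400 (0.958), Glyma.06G072000 (0.958) and Glyma.13G259400, a match of GA2OX1, which inactivates gibberellins (0.955). No gene was on the lists of both Glyma.19G164600 and a MYB102 member. By Spearman's rho the first gene of each list ranked 8, 18.5 and 75.5 in the order Glyma.07G189300, Glyma.08G059900 and Glyma.19G164600, and over the 6 group means it ranked 1, 23 and 1.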

How the data were processed

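Root RNA of 18 samples was hybridized to the Affymetrix Soybean GeneChip. The deposited log2 values were made by the authors with RMA in Affymetrix Expression Console, and GeneSpring version 11 was used for later steps; other versions are not given in the sources used here. The deposited values of a probe have a median of 0, so brightness, and with it any filter on dim probes, is lost. The array medians lay between -0.019 and 0.018.

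A model with 1 mean per group was fitted to all 18 arrays in R 4.3.3 with limma 3.58.1, using lmFit, contrasts.fit and eBayes (12 residual and 6.28 prior degrees of freedom, residual SD 0.221 at the median). Benjamini-Hochberg adjustment ran over 66195 probes, and a call needed an adjusted p under 0.05 and a 2-fold change. A limma p-value sets a difference of group means against the spread between repeats, pooled over all groups and drawn towards a prior over all probes. The 3 biological repeats per group limit the precision. The procedure was tested on simulated data.

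Probes of the 3 genes and of the gene lists were found through the soybean identifiers of the study's tables, of which parts were held, and through array symbols; 4824 probes were tied to exactly 1 gene. Arabidopsis names are best protein matches from these tables. The genes and lists were chosen with earlier results of these data known. Named besides the 3 genes are the other matches of MYB102 and MYB14, Myb family probes called in DT-D2/W-D2, up to 4 called probes with the lowest adjusted p of each other list at 10 h, and the 5 probes most correlated with each gene. Alternatives were the methods' t-test (Student's test, equal variances), a fit of the compared groups alone, a replicate block, 2 other scalings, only probes with 1 gene, no fold threshold, arrayWeights, 2 other variance priors, and leaving out each array. Figures were drawn with Python 3.11.15 and Matplotlib 3.10.9. Promoter and protein sequences were not used here.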

Additional observations from a re-analysis of the deposited data

How the results depend on the processing

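Under alternatives other than leaving out arrays, 310 values of the 3 genes kept direction and side of the threshold or moved under 1 SD. Of the rest, 4 moved further, 2 turned and 8 came to be called. With arrays left out the counts were 583, 1, 6 and 4. Many values could not move, since an array outside the groups compared, the t-test, the block and the priors leave a difference unchanged. A lost adjusted p also counted as kept where a gene was not called. For Glyma.07G189300 in DT-D2/DT-C it was 0.041 by limma and 0.172 by the methods' t-test. Quantile normalization moved the most values, and the cause was not tested. Under it Glyma.19G164600 reached 1.12 in DT-D2/W-D2 (past 2-fold), had 1.48 over the W82 control and 1.20 over W-D2 at 10 h, and its difference of the 2 h changes turned to 0.38. The differences of the 10 h changes became -0.28 (Glyma.07G189300), 0.0055 (Glyma.08G059900, turned) and -0.31 (Glyma.19G164600), and Glyma.15G066800 turned to 0.057 in DT-D10/W-D10. Without the 2-fold threshold, Glyma.08G059900 (0.87) and Glyma.19G164600 (0.74) counted as called in W-D2/W-C, all 3 genes (0.62, 0.70 and 0.68) in DT-D2/DT-C, and Glyma.19G164600 in DT-C/W-C (0.98) and DT-D2/W-D2 (0.92). Over the alternatives other than leaving out arrays, Glyma.19G164600 in DT-C/W-C ran from 0.74 to 0.99.

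Repeat numbers showed no clear pairing of the samples, with 3 of 45 same-numbered pairs of arrays correlated over 0.1 (range -0.175 to 0.187). The labels do not say whether same-numbered repeats were handled together, and these correlations cannot exclude it. With the replicate block Glyma.19G164600 had an adjusted p of 0.000138 in DT-C/W-C and 0.000239 in DT-D2/W-D2, Glyma.07G189300 had 0.048 in DT-D2/DT-C, and the block changed no call of the 3 genes.

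With single arrays left out, Glyma.19G164600 in DT-C/W-C ranged from 0.87 to 1.06, Glyma.08G059900 in DT-D10/W-D10 from -0.14 to 0.29, Glyma.07G189300 in W-D10/W-D2 from 2.28 to 2.75, and the 2 h difference of changes from -0.13 to 0.34 for Glyma.07G189300 (turned without the third array of W-D2) and from -0.14 to 0.046 for Glyma.19G164600. Glyma.15G066800 ranged from -0.80 to 0.26 in DT-D10/W-D10 and, for the 10 h difference of changes, from -0.93 to 0.13.

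The share of all probes called moved by over 1.5 times in these cases. By the methods' t-test it was 0.397% in DT-D2/DT-C, 0.319% in W-D2/W-C, 0.491% in DT-C/W-C, 0.872% in DT-D2/W-D2, 0.122% in DT-D10/W-D10, 1.33% in DT-D10/DT-C, 1.8% for W-D10 over W-C, 0.0423% in DT-D10/DT-D2 and 0.0937% in W-D10/W-D2. Among only the probes with 1 gene, mostly picked by the study or given a symbol, it was 15.5, 10.8, 11.3, 13.7, 6.14, 19.5, 21.2, 7.17 and 9.64% in the same order, and 3.88% and 3.59% for the differences of the 2 h and 10 h changes. Without the fold threshold it was 12.1, 7.82, 11.7, 14.3, 4.96, 13.2, 15.9, 7.72 and 9.09%. The 2 h difference of changes gave 0.885% with arrayWeights, 0.264% with a robust trended prior and 0.19 to 1.23% with arrays left out; the 10 h difference gave 0.213% with that prior and 0.174 to 0.542% with arrays left out. Brightness, and so signal over background, could not be weighed for any probe.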
